A study of Mus musculus with 10 samples.

Results

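The aryl hydrocarbon receptor battery described here is a set of 7 genes: the receptor Ahr, its partner Arnt, the receptor repressor Ahrr, and the receptor targets Cyp1b1, Cyp1a1, Nqo1 and Tiparp. They were taken by name from the 32903 genes of the table and were chosen from the comparison of bisphenol S (BPS) with vehicle in these same libraries, so their levels and fold changes in that comparison are a description and not a test. RNA was sequenced from preadipocytes, the precursors of fat cells, of inguinal subcutaneous adipose tissue (iSAT) of male wild-type C57 BL6 mice. The vehicle group was 5 libraries of cells given DMSO, and the BPS group was 5 libraries of cells given 2.5 µM BPS dissolved in DMSO, so both groups were exposed to the solvent. The exposure time was not stated, and the labels did not say whether replicates were separate animals or dishes, so p-values measure only the spread between these samples, which may be technical. The library numbers in the labels put all DMSO libraries before all BPS libraries, and an order of preparation that followed them cannot be told apart from the treatment.

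The aryl hydrocarbon receptor is a ligand-activated transcription factor of the bHLH-PAS family that waits in the cytosol in a complex with heat shock protein 90. On binding planar aromatic ligands, such as dioxins or tryptophan metabolites, it moves to the nucleus, pairs with ARNT and binds response elements with the core GCGTG near its targets. Its targets include cytochrome P450 enzymes of family 1, which oxidise the ligands, NQO1, which reduces quinones, and the feedback proteins AHRR and TIPARP, and in preadipocytes its activation is known for restraining fat cell differentiation.

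Libraries held 37920689 to 42717227 estimated counts, and levels are given as CPM, the counts of a gene scaled to a common library size with TMM factors. The preadipocyte label was checked against 11 markers, whose summed level was 24232 to 25887 CPM in DMSO and 23451 to 26329 CPM in BPS, most of it from Col1a1 (21821 ± 652.3 and 21909 ± 1060.2 CPM, SD, n = 5 per group). Of the 11, edgeR called 2, both higher under BPS: Thy1 (848.1 to 968.1 CPM, adjusted p = 0.00129) and Cd34 (45.2 to 54.8 CPM, adjusted p = 0.000428). Over all 14597 genes tested, edgeR called 4.88%, with 3.06% as higher under BPS. In edgeR 3 of the 11 had an unadjusted p under 0.05, and DESeq2 called 3. Pdgfra went the other way, from 903.8 to 863.3 CPM (log2 fold change -0.07, standard error 0.019, edgeR adjusted p = 0.0777). The adipocyte markers Adipoq, Lep, Cidec and Retn had at most 3 counts in any library. Of the markers of other cells, the summed mural level was 58.1 to 63.9 CPM in DMSO and 64.5 to 72.9 CPM in BPS, with Cspg4 higher among 6 genes. The summed mesothelial level was 9.06 to 11.0 and 11.0 to 12.9 CPM, with Krt19 higher, Wt1 at 0.849 and 0.569 CPM (not called, edgeR adjusted p = 0.155) and the defining markers Msln and Upk3b at or near 0. Among other cells, 0 of 6 tested macrophage and 0 of 6 tested endothelial markers passed edgeR's test, had an unadjusted p under 0.05 or passed in DESeq2. The part of these shifts in the battery's values was not tested, and in bulk RNA fewer cells of a type and less RNA per cell cannot be told apart.

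The sequence before each start site shows which battery genes carry the receptor's element close to their promoter. RefSeq windows (GRCm38.p6) running from 250 bases before to 50 after the start were found for 6 of the 7 genes, all but Ahr, and were searched on both strands for TNGCGTG, the receptor element, for its core GCGTG, which lies within it, and for TGACNNNGC, the core of the antioxidant element bound by NRF2. The 250 bases before the start are printed for the 3 targets whose levels were lower under BPS without overlap and for Tiparp, whose level was close to that of DMSO. The windows are Ahrr at chr13:74292332-74292581 (minus strand), Cyp1b1 at chr17:79715062-79715311 (minus strand), Nqo1 at chr8:107403206-107403455 (minus strand) and Tiparp at chr3:65528197-65528446 (plus strand), read 5′ to 3′ on the gene's strand, with every match in capitals on whichever strand it lies.
Ahrr: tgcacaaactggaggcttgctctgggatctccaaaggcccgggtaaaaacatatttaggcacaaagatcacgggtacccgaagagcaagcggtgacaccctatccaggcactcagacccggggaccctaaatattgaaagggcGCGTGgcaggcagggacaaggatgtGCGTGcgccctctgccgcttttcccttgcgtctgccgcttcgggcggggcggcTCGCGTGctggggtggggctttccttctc
Cyp1b1: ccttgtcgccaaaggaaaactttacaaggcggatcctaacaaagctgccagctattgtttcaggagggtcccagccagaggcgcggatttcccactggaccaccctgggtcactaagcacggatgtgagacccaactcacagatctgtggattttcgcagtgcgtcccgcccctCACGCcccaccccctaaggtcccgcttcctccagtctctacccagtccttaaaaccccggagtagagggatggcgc
Nqo1: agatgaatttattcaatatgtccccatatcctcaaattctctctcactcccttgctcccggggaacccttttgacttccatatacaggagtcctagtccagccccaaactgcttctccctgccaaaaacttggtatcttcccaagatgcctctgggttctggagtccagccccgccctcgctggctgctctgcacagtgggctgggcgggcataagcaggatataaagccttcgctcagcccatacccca
Tiparp: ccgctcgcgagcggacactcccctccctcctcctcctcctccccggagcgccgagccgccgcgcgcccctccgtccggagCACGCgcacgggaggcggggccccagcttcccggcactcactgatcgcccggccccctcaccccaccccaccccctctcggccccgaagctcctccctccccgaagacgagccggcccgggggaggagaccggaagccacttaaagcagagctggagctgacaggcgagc
In Ahrr the core matched 3 times, at -107, -82 and -27 from the start, and the match at -27 was the end of a full element that began at -29. Cyp1b1 held 1 core on the opposite strand at -76, and Tiparp held 1 on the opposite strand at -170. Nqo1 held no match to any of the 3 motifs in its window. Of the genes not printed, Cyp1a1 held 1 core at -54, and Arnt held 1 core at -29 and antioxidant cores at -127 and -50. Of all 32851 windows of this length, 5.1% held the full element, 32.4% its core and 12.4% the antioxidant core, so a single core is common. These matches describe the letters of the windows and say nothing of binding, and elements farther away were not searched.

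**Figure D1:**
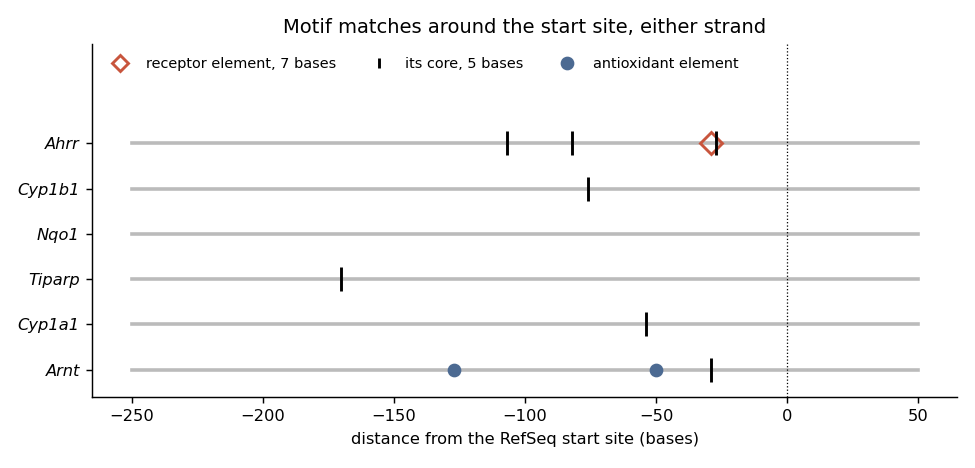
Motif matches in the promoter windows of the 6 battery genes with a RefSeq entry. The x axis is the distance from the start site in bases, grey lines are the windows, and symbols are matches on either strand. Ahrr carries 3 cores and the 1 full element, and Nqo1 carries none.

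The transcript of the receptor itself was scarce in both groups. Ahr, which encodes the ligand-binding subunit, had 3.37, 3.20, 3.30, 3.24 and 3.04 CPM in DMSO replicates 1 to 5 and 2.46, 2.87, 3.01, 2.96 and 3.99 CPM in BPS replicates 1 to 5. BPS replicate 5 was the highest of the 10 libraries and the other 4 BPS libraries lay below every DMSO library, so the groups overlapped. The mean was 3.23 ± 0.123 CPM in DMSO against 3.06 ± 0.563 under BPS (SD, n = 5 per group), and the log2 fold change was -0.08 with a standard error of 0.11 and a 95% interval from -0.33 to 0.17. Each value rested on 98 to 144 counts, and the interval allows a level from 20.4% lower to 12.3% higher under BPS. The log2 fold change was -0.195 without BPS replicate 5 and -0.01 without BPS replicate 1, and neither passed the test over all genes.

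Arnt, the partner that the receptor needs to bind DNA and that also pairs with hypoxia-inducible factors, was more abundant. It had 62.7, 70.8, 65.3, 59.3 and 60.3 CPM in DMSO and 59.1, 55.1, 62.2, 66.2 and 65.0 CPM in BPS. The groups overlapped over most of their range. The log2 fold change was -0.05 with a standard error of 0.057 and an interval from -0.17 to 0.07.

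The repressor was the member with the largest fold difference. Ahrr encodes a receptor-like protein without a ligand-activated function that competes for ARNT and for the response element, and its own transcription is induced by the receptor. It had 2.20, 1.82, 1.80, 1.90 and 2.49 CPM in DMSO and 0.376, 0.460, 0.596, 0.536 and 0.498 CPM in BPS. All 5 BPS libraries lay below all 5 DMSO libraries, and the highest BPS library was at 0.596 CPM against a lowest DMSO library of 1.80 CPM. Means were 2.04 ± 0.297 and 0.493 ± 0.0824 CPM (SD, n = 5 each), 4.14-fold lower under BPS, with a log2 fold change of -2.05, a standard error of 0.15 and an interval from -2.38 to -1.72. It had the 6th lowest log2 fold change of the 14597 genes tested. The counts behind it were small, 71 to 89 per library in DMSO and 15 to 22 in BPS.

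Cyp1b1, a P450 of family 1 that hydroxylates estrogens and polycyclic hydrocarbons, was the most abundant battery gene and ranked 276th of the 14597 genes by mean CPM. Its level was 575.3, 583.3, 635.7, 580.2 and 563.1 CPM in DMSO and 342.6, 374.8, 393.1, 369.5 and 404.2 CPM in BPS. No BPS library reached the lowest DMSO library, and DMSO replicate 3 stood above the other 4. The level under BPS was 35.9% lower on the fitted scale, and the log2 fold change was -0.64 with a standard error of 0.043 and an interval from -0.74 to -0.55. Each library held at least 13050 counts of this gene, so counting error was small.

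Cyp1a1, the P450 most often used as a readout of the receptor, was close to absent. The DMSO libraries held 4, 3, 0, 2 and 0 counts, 9 in all, and all 5 BPS libraries held 0. A count of 0 allows up to 3 counts in a library, which is 0.0752 to 0.0862 CPM in these libraries and covers counting error only. Both groups lay near this limit, so Cyp1a1 was not tested and no fold is given.

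Nqo1 encodes a quinone reductase that is also a target of NRF2. It had 32.3, 32.5, 28.9, 32.2 and 33.8 CPM in DMSO and 21.0, 15.1, 18.2, 17.3 and 16.4 CPM in BPS. The groups did not overlap, with BPS replicate 1 the nearest to DMSO. The mean fell from 31.9 ± 1.83 CPM to 17.6 ± 2.23 CPM under BPS (SD, n = 5 per group), 44.8% lower, and the log2 fold change was -0.86 with a standard error of 0.075 and an interval from -1.02 to -0.69.

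Tiparp encodes a mono-ADP-ribosyltransferase that marks the receptor for degradation. It had 36.9, 35.6, 37.4, 36.3 and 36.5 CPM in DMSO and 35.4, 35.4, 34.3, 34.9 and 35.6 CPM in BPS. The groups touched, since BPS replicate 5 and DMSO replicate 2 had almost the same level, and spread within each group was narrow. The log2 fold change was -0.06 with a standard error of 0.023 and an interval from -0.11 to -0.01, which leaves room for a level at most 7.2% lower, and it did not pass the test over all genes. A noncoding gene, 4931440P22Rik, overlaps the start of Tiparp in the RefSeq table, and the strand setting of the counting was not stated.

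**Figure D2:**
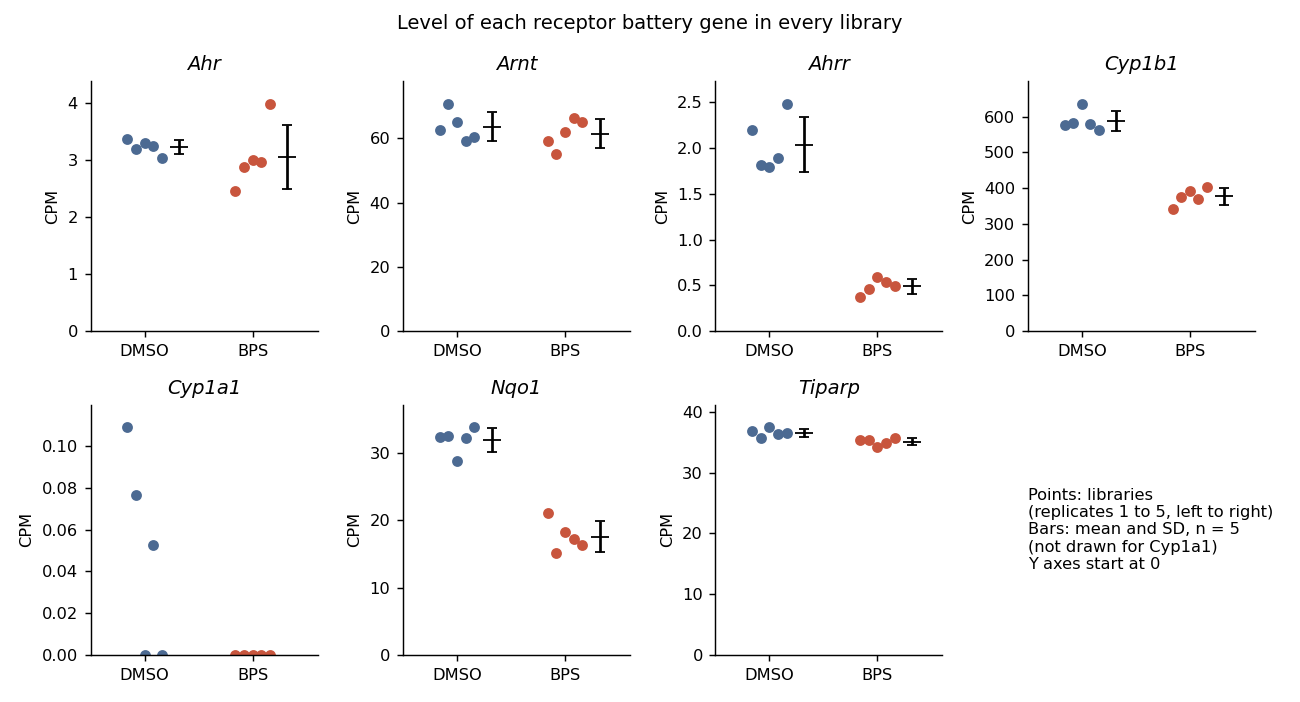
Level of each battery gene in each library. The y axes are CPM and start at 0, points are libraries in replicate order, and bars are the mean and SD of 5 libraries. Ahrr, Cyp1b1 and Nqo1 show separate groups, Ahr, Arnt and Tiparp show overlapping ones, and Cyp1a1 is at 0 in all BPS libraries.

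Of the 6 members tested, 3 had an adjusted p under 0.05 in edgeR's quasi-likelihood test, all 3 lower under BPS, and the same 3 had groups without overlap. Over all 14597 genes, 4.88% passed, 1.82% as lower and 3.06% as higher, and 6.9% had groups without overlap. The median log2 fold change was -0.36 over the 6 tested members and 0.00 over all genes tested. As the members were chosen from this comparison, the counts and the median support nothing beyond their own values. The receptor and its partner, which bind the ligand and the DNA, had intervals that included 0, while 1 feedback gene, Ahrr, was lower and the other, Tiparp, was not called.

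Lengths differ between these genes, so levels were compared per kilobase of transcript. In DMSO the order of mean levels was Cyp1b1 at 114.6 ± 5.46 CPM per kilobase, Arnt at 21.4 ± 1.55, Nqo1 at 20.6 ± 1.18, Tiparp at 8.72 ± 0.161, Ahr at 0.582 ± 0.0222 and Ahrr at 0.429 ± 0.0626 (SD, n = 5 each), with Cyp1a1 last. Arnt and Nqo1 were neighbours whose ranges overlapped in DMSO, 19.9 to 23.8 against 18.6 to 21.8 CPM per kilobase. Their order turned when the longest Arnt transcript was used, which put Arnt at 14.7 CPM per kilobase. In BPS the order of means was the same, but Nqo1 stood at 11.3 ± 1.44 and Arnt at 20.6 ± 1.51 CPM per kilobase without overlap. With the longest transcript Arnt was at 14.2 CPM per kilobase in BPS, 12.8 to 15.3 over the libraries, and overlapped Nqo1 at 9.73 to 13.5. In DMSO Ahr ran from 0.549 to 0.608 and Ahrr from 0.379 to 0.523 CPM per kilobase, without overlap. In BPS Ahrr was at 0.104 ± 0.0173 against 0.551 ± 0.102 CPM per kilobase for Ahr. A length was found for 2 of the 5 Ahrr records and 2 of the 7 Arnt records. The levels of these 2 genes per kilobase thus rest on the lengths of part of their transcripts.

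**Figure D3:**
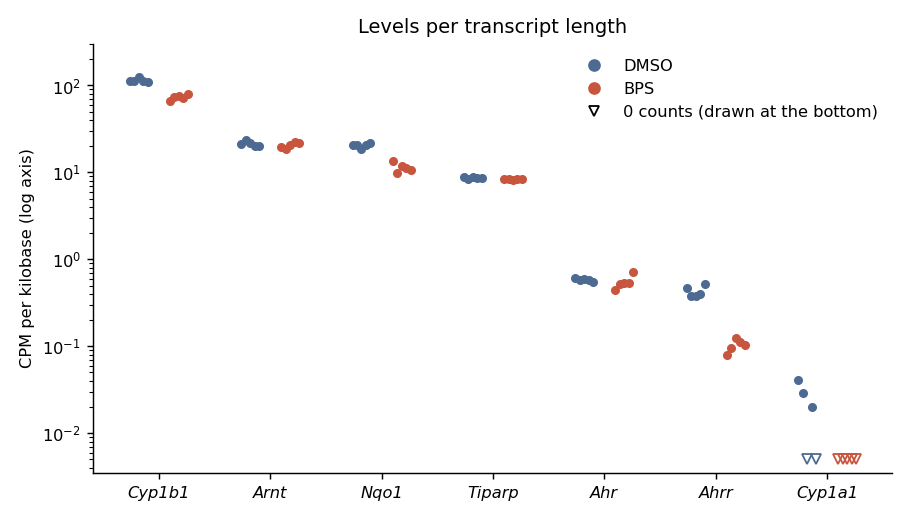
Levels of the battery genes per kilobase of transcript. The y axis is CPM per kilobase on a log axis, points are libraries, and triangles are libraries with 0 counts. Cyp1b1 lies at 114.6 CPM per kilobase in DMSO on average, and Ahr and Ahrr lie below 1 in every library.

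The transcripts behind Ahr and Ahrr were assigned unevenly between libraries. The transcript NM_001314027.1 of Ahr had 72.9, 22.9, 78.9, 0 and 57.9 estimated counts in DMSO and 0 in all 5 BPS libraries. The other, NM_013464.4, had 51.1, 102.1, 51.1, 123.0 and 51.1 in DMSO and 98.0 to 144.0 in BPS. Both records are tied to the same GENCODE transcript in the annotation used for lengths, and 3 DMSO libraries shared a value of 51.1 for NM_013464.4 to the last digit written. For the second record edgeR gave a log2 fold change of 0.62 (standard error 0.30, adjusted p = 0.797 over 37588 transcripts), and Ahr is described here by the sum of both records.

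Of Ahrr, the curated transcript NM_009644.3 had 62.2, 15.6, 15.6, 23.8 and 46.6 estimated counts in DMSO and 15.0, 6.39, 0, 0 and 0 in BPS. The predicted XM_006517050.2 had 18.7, 55.4, 55.4, 30.6 and 24.6 in DMSO and 0.0129, 0, 4.34, 19.0 and 0.388 in BPS. Both were lower under BPS on average, but their ranges touched or nearly touched. Another record, the predicted XM_006517049.3, had 0, 0, 0, 17.7 and 17.7 in DMSO and 0, 0, 17.7, 0 and 17.6 in BPS, so its mean was 7.06 and 7.05 estimated counts, and it held 39.2% of the Ahrr counts in BPS. The predicted XM_006517048.1 had at most 0.0213 estimated counts in DMSO and went the other way through BPS replicate 2, at 9.61. It held 10.7% of the Ahrr counts in BPS. Predicted models together held 57.3% of the Ahrr counts in DMSO and 76.2% in BPS. The log2 fold changes were -3.01 for NM_009644.3 (standard error 1.26, edgeR adjusted p = 0.682) and -2.91 for XM_006517050.2 (standard error 1.28, edgeR adjusted p = 0.721). When predicted models were left out, Ahrr kept its direction at -2.99 but had an edgeR adjusted p of 0.152. Matching accessions with their exact version gave -2.98 and 0.13. Among all transcripts tested 0.335% passed, and among the members' transcripts those of Cyp1b1 and Nqo1, each a single record, did.

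**Figure D4:**
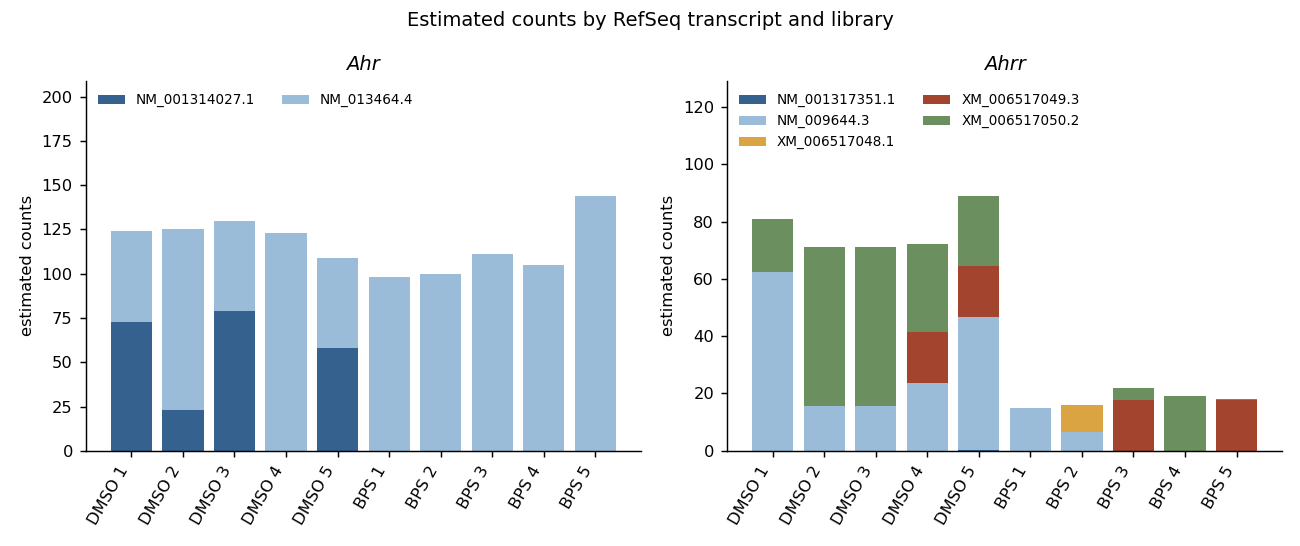
Estimated counts of Ahr and Ahrr by RefSeq transcript in each library. The y axes are estimated counts, and colours are transcripts. The Ahr totals are alike in both groups while 1 transcript is at 0 under BPS, and the Ahrr totals are 71 to 89 in DMSO and 15 to 22 in BPS.

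Within the groups the members varied without a shared pattern that passed a test. BPS replicate 1 had the lowest level of Ahr, Ahrr and Cyp1b1 among the BPS libraries and the highest of Nqo1, and DMSO replicate 3 had the highest Cyp1b1 and the lowest Nqo1 among the DMSO libraries. Over the 10 libraries, after removing each group's mean log2 CPM, Cyp1b1 and Ahr had a Pearson r of 0.76 (exact permutation within groups, p = 0.026) and a Spearman rho of 0.60 (exact permutation, p = 0.0828). Cyp1b1 and Nqo1 had an r of -0.70 (exact permutation, p = 0.0433) and a rho of -0.67 (exact permutation, p = 0.0507). These were the strongest of 15 pairs, and after Benjamini-Hochberg adjustment over the pairs both Pearson p-values were 0.324 and both Spearman values 0.621. The result of leaving out 2 libraries depended on the gene used to pick them. Without the 2 farthest from the median in Ahr (BPS replicates 1 and 5), r for Ahr and Cyp1b1 was 0.41, and without the 2 farthest in Cyp1b1 (BPS replicate 1 and DMSO replicate 3) it was 0.77. For Cyp1b1 and Nqo1, r was -0.29 without the 2 farthest in Cyp1b1 and -0.77 without the 2 farthest in Nqo1 (BPS replicates 1 and 2).

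The genes whose deviations were most like each member's, out of all tested genes with a mean of at least 1 CPM over the same 10 libraries, are given as a description. For Cyp1b1 they were Ccn5 (r = 0.98), Ccn3 (0.98) and Lox (0.97), and for Nqo1 Nono, Cdca3 and S100a10 (0.96 each). For Ahr they included Napg and Maml2 (0.97 each), and for Arnt they were Slc1a7 and Rpe (0.93 each) and Eefsec (0.92). For Ahrr they were Kcnab2 (0.92), Plxnb1 (0.91) and Zfp217 (0.90), and for Tiparp Cyp39a1 (0.95), Vac14 (0.92) and Atxn7l3b (0.91). The points share libraries and depth.

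The other genes of the pathway came from 7 lists of 96 genes, of which 83 were tested and 9 passed edgeR's test over all genes, 5 higher and 4 lower (10.8% of those tested, against 4.88% of all genes). Their median log2 fold change was 0.00, as over all genes tested. Of 26 tested other targets of the receptor, 6 passed, 2 lower and 4 higher, with a median of 0.04. In edgeR 8 of the 26 had an unadjusted p under 0.05, and DESeq2 called 6. Those of the 8 that were not called in edgeR had lower means under BPS. The 2 called as lower were Xdh, encoding xanthine dehydrogenase of purine breakdown, and Nfe2l2, encoding NRF2. Xdh went from 129.3 ± 2.20 to 97.3 ± 1.73 CPM (SD, n = 5 each, log2 fold change -0.41, standard error 0.018, edgeR adjusted p = 9.18e-07). Nfe2l2 went from 199.5 ± 2.71 to 180.9 ± 6.73 CPM (log2 fold change -0.14, standard error 0.024, edgeR adjusted p = 0.00714). Neither gene's groups overlapped.

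The targets that rose included Ptgs2, encoding the prostaglandin synthase COX-2, Slc7a5, encoding a transporter of large neutral amino acids, and Cdkn1a, encoding the cell cycle inhibitor p21. Ptgs2 went from 51.1 ± 5.57 to 65.2 ± 5.20 CPM (log2 fold change 0.35, standard error 0.074, edgeR adjusted p = 0.0202), without overlap. Slc7a5 (332.8 to 368.0 CPM, edgeR adjusted p = 0.0233) and Cdkn1a (146.8 to 163.1 CPM, edgeR adjusted p = 0.0497) had overlapping groups. Leaving out single libraries took the call from each of these 3. Ptgs2 was lost without DMSO replicate 4 or BPS replicate 2. Slc7a5 was called in 4 of the 10 such fits and Cdkn1a in 2 of them. Xdh and Nfe2l2 were called in all 10. Of 11 other settings that kept all libraries, Cdkn1a was called in 4, Slc7a5 in 9 and Ptgs2 in 10. Xdh and Nfe2l2 were called in all 11. Of the best known liver targets, Cyp1a2 had 0 counts in every library, and Aldh3a1, Gsta1 and Gsta2 were too low to test. Ugt1a6a and Ugt1a6b share exons and their split is uncertain: neither was called, at 44.3 to 46.2 and 29.1 to 29.9 CPM.

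Of the 7 relatives of NQO1 and TIPARP, 2 fell and 0 rose in edgeR (28.6%, against 4.88% of all genes), 5 had an unadjusted p under 0.05, and DESeq2 called 4. Parp14, an ADP-ribosyltransferase also known as interferon-inducible, went from 51.9 ± 3.63 to 41.1 ± 4.41 CPM (log2 fold change -0.34, standard error 0.070, edgeR adjusted p = 0.0185). Parp12, a relative of the same kind, went from 48.7 ± 2.15 to 43.0 ± 2.12 CPM (-0.18, standard error 0.039, edgeR adjusted p = 0.0232). Parp14 was called in all 10 leave-one-out fits and Parp12 in 6, not without DMSO replicate 3 or 4 or BPS replicate 2 or 3. The other 3 with an unadjusted p under 0.05 had lower means under BPS and were not called in edgeR: Zc3hav1 (173.0 to 157.6 CPM), Parp10 (24.6 to 22.2 CPM) and Parp9 (26.4 to 20.4 CPM). Nqo2, the nearest relative of Nqo1, had 53.5 ± 1.42 CPM in DMSO against 52.3 ± 2.13 under BPS and was not called. Parp1 had 106.0 ± 1.61 CPM in DMSO against 107.3 ± 2.49 under BPS (log2 fold change 0.02) and was not called either.

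Of 9 genes that hold, escort or degrade the receptor, the cytosolic complex and turnover list, 0 passed in edgeR, 2 had an unadjusted p under 0.05 and DESeq2 called 1. Src, a kinase of the complex, had 58.9 ± 1.23 and 63.0 ± 2.53 CPM (edgeR adjusted p = 0.0791). The heat shock protein genes Hsp90ab1 (2208.1 ± 22.5 and 2182.8 ± 59.6 CPM) and Hsp90aa1 (819.5 ± 18.4 and 812.4 ± 17.0 CPM) had overlapping groups.

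Of 10 tested bHLH-PAS relatives, 0 passed and 0 had an unadjusted p under 0.05 in edgeR. Hif1a, another partner of ARNT, had 437.8 ± 15.9 CPM in DMSO against 428.8 ± 15.7 under BPS. Of 14 co-regulators, 0 passed and 1 had an unadjusted p under 0.05, and of 5 tested genes of tryptophan ligand supply, 0 passed and 1 did. DESeq2 called 0 genes of the relatives, 0 of the co-regulators and 0 of ligand supply. Ido2, of the kynurenine route that makes receptor ligands, had 0.399 ± 0.125 and 0.197 ± 0.0617 CPM, with an edgeR adjusted p of 0.0652. Its groups overlapped, and Ido2 held at most 21 counts in any library. The ligand supply list held 11 genes, and those outside the 5 tested were too low to test. Of 12 genes of P450 electron supply and haem synthesis, Cyb5r3, encoding a cytochrome b5 reductase, passed at 292.1 ± 3.64 and 306.0 ± 5.76 CPM (log2 fold change 0.07, edgeR adjusted p = 0.0404). It was called in 2 of the 10 leave-one-out fits, and its log2 fold change was -0.03 with exact version matching. Por, the main electron donor of CYP1B1, had 163.1 ± 1.75 and 158.4 ± 4.53 CPM and was not called.

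**Figure D5:**
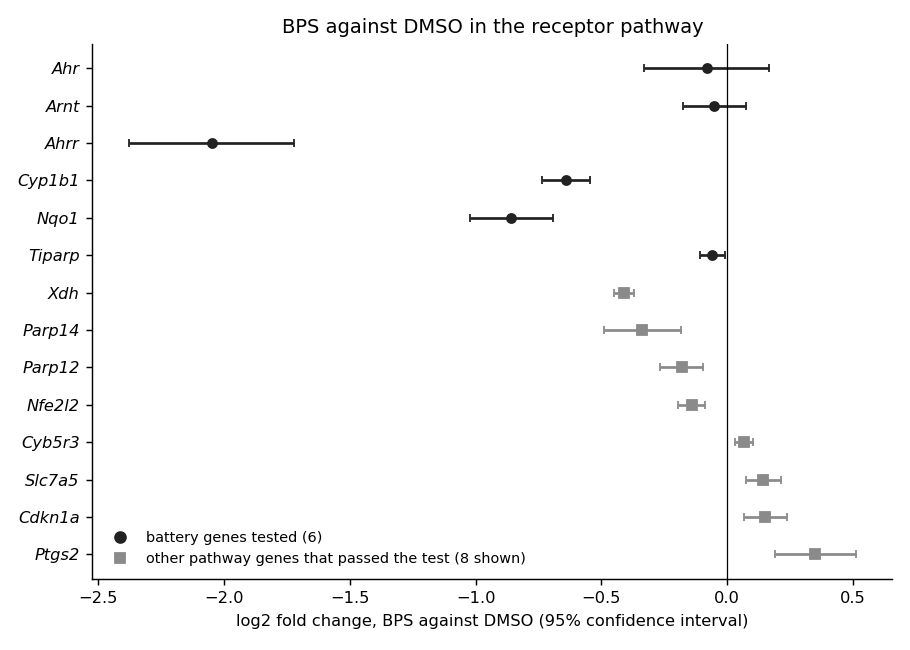
Log2 fold changes of the 6 tested battery genes and of 8 other pathway genes that passed the test. The x axis is the log2 fold change of BPS against DMSO, and bars are 95% confidence intervals. Ahrr lies at -2.05, Nqo1 at -0.86 and Cyp1b1 at -0.64, and the 8 other genes lie between -0.41 and 0.35.

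Among the pathway genes the count of calls depended on the libraries. The count of 9 became 5 without DMSO replicate 1, 5 without DMSO replicate 4, 4 without BPS replicate 2 and 5 without BPS replicate 3. The 3 calls among the battery genes were made in all 10 leave-one-out fits.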

How the data were processed

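RNA was sequenced from 10 libraries, 5 of DMSO and 5 of BPS. The authors deposited 1 table of estimated counts for 107384 RefSeq transcripts, made with kallisto 0.42.4 per the submitters' processing notes. kallisto splits ambiguous reads among similar transcripts, and its index, the genome build and the strand setting are not given in the sources used here. Accessions were matched without version to a RefSeq gene table (GRCm38.p6, names only), which placed 86722 transcripts in 32903 genes. The other 20662 transcripts, with 6.9% of the counts, were left out and could include further models of these genes. Counts were summed per gene, rounded, filtered with filterByExpr (14597 genes) and compared with edgeR's quasi-likelihood test with TMM factors (0.985 to 1.01) and Benjamini-Hochberg adjustment over all genes, with a threshold of 0.05. CPM were computed with the TMM-scaled library sizes. The standard error is the log2 fold change over the square root of F, and lengths came from GENCODE transcripts tied to the same accessions. Replicate pairs differed by 4.13 to 8.77 times sampling noise, so none was a copy.

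The battery and the pathway lists were chosen with earlier results of these data known. Besides the battery, the text names pathway genes with an adjusted p under 0.05, up to 6 others per list of highest mean CPM, a few named after their values were seen (Src, Ido2, Nqo2, Ugt1a6b, Parp9, Parp10, Zc3hav1 and the untested targets), and the 3 most alike genes per member. A few genes that met the rule are not reported here. The correlations between battery genes were added after the data had been seen. Alternatives were other scalings, filters and tests (DESeq2, limma-voom), a replicate block, stricter accession matching and leaving out each library. The code was tested on simulated data. Tests ran in edgeR 4.0.16, DESeq2 1.42.0 and limma 3.58.1 under R 4.3.3, and tables and figures were made in Python 3.11.15 with matplotlib 3.10.9, numpy 2.4.6 and pandas 2.3.3.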

Additional observations from a re-analysis of the deposited data

Results flagged for a closer look

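A single library stood apart from the other 4 of its group in 1 of 29 groups of values checked, over the battery genes and the named pathway genes that passed the test, where chance gives about 1 in 20. Cyp1b1 in DMSO replicate 3 was at 635.7 CPM, and the other 4 DMSO libraries lay between 563.1 and 583.3 CPM. Without DMSO replicate 3 the log2 fold change of Cyp1b1 was -0.61, against -0.64 with it.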

How the results depend on the processing

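Of 125 recomputed log2 fold changes of the tested battery genes, 123 kept their direction and side of the threshold, 2 lost the call and 0 reversed. The 2 were Ahrr, at -2.983 with exact version matching (edgeR adjusted p = 0.13) and -2.99 with curated accessions only (0.152), where fewer of its transcripts were counted. Calls among battery genes were 3 in every leave-one-out fit and 3 with the replicate block, and 1 with exact version matching, which left Cyp1b1 without a matched transcript. Over all genes, 712 calls became 374 with the replicate block, 328 with exact version matching and 311 with curated accessions only, and 449 to 774 when single libraries were left out, 449 without DMSO replicate 2 and 462, 465 and 462 without BPS replicates 2, 3 and 4. The count of pathway calls, 9 in the main fit, was 9 with the replicate block, 5 with exact version matching and 4 with curated accessions only. Over the leave-one-out fits it ran from 4 to 9. A count of 9 did not mean the same 9 genes. Cyb5r3 was not called with the replicate block (edgeR adjusted p = 0.0639), nor Slc7a5 without BPS replicate 5 (edgeR adjusted p = 0.0531). Deviations of same-numbered DMSO and BPS libraries had correlations from -0.050 to 0.107. Differently numbered libraries were not compared, so whether the replicate numbers pair the libraries was not tested. Scaling by library size alone gave 334 higher and 394 lower calls, against 447 and 265. The genes most like a member changed when group means were kept: of 3 genes, 1 was shared for Ahr, 0 for Ahrr, 2 for Arnt, 0 for Cyp1b1, 0 for Nqo1 and 1 for Tiparp. Ahrr, at 15 to 22 counts per BPS library, and Cyp1a1 are limited by depth.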
